A study of Mus musculus with 2 samples.

Results

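The mitosis and spindle genes described here are 34 genes that carry a cell from entry into mitosis to the separation of its daughters. They were chosen by symbol, as mitotic cyclins and kinases, checkpoint, kinetochore, spindle and cytokinesis genes, and all 34 were found among the 16190 genes of the deposited count table. Each had at least 136 counts in both libraries and all 34 passed the filter on low counts, as did 12874 genes in all. RNA came from satellite cells, the stem cells of skeletal muscle, isolated from the tibialis anterior of C57BL/6 mice. 1 library was made from Cipc flox/flox mice, whose Cipc alleles are floxed and which served as the control (titled Cipc+/+). The other was made from Cipc scko mice, in which the same gene was deleted specifically in satellite cells (titled Cipc-/-). The Cre line behind the deletion, the age of the mice, the number of mice in each library and any time in culture were not given in the sources used here. The series title speaks of mdx mice, a model of muscular dystrophy, which the labels of these samples do not name. Cipc encodes CLOCK-interacting pacemaker, a repressor of the circadian clock, and the comparison asks how the transcriptome of satellite cells differs without it.

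Mitosis is driven by cyclin-dependent kinase 1 bound to cyclins A and B. Spindle microtubules then attach to kinetochores on the centromeres, a checkpoint holds back anaphase until every chromosome is attached, and the anaphase-promoting complex (APC/C) ends mitosis by marking cyclin B and securin for degradation. Transcripts of most genes in this programme build up in G2 and mitosis and are low in cells that have left the cycle, so their summed level is widely used as a sign of how many cells are dividing. In muscle, satellite cells are mostly quiescent until injury, divide as myoblasts, and leave the cycle for good when they differentiate.

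The libraries held 16830168 counts (Cipc scko) and 16145870 counts (Cipc flox/flox). With 1 library per genotype there is no replicate and no test: the values describe these libraries, and every interval given covers counting error only. Cipc itself stood at 37.0 CPM (counts scaled by library size) in Cipc scko against 113 CPM in Cipc flox/flox, or -1.61 on the log2 scale (95% counting interval -1.74 to -1.47), so the library labelled Cipc scko kept reads of the targeted gene. Xist had 4 and 3898 counts, in that order, and the Y-linked gene Ddx3y 511 and 0, so the libraries also differ in sex-linked genes, which cannot be told apart from genotype here. Of 10 satellite cell markers, 8 had a row in the table and Calcr and Chrdl2 had none, and 7 stood at 1 CPM or more in both libraries. Their summed level was 2401 CPM in Cipc scko against 1864 CPM in Cipc flox/flox, mostly from Itga7, at 1358 and 1083 CPM. Pax7, the defining transcription factor, stood at 62.2 and 2.54 CPM, Spry1 at 13.7 and 0.532 CPM and Myf5 at 66.2 and 61.6 CPM. Spry1 passed the filter only through Cipc scko. Of the 8 markers, 7 had a log2 ratio above 0, as did 6474 of 12874 genes past the filter. The intervals of 6 lay above equality, against 5348 of those 12874 genes, and that of Myf5 spanned it (0.10, -0.02 to 0.23). Sdc4 ran the other way, at 112 and 176 CPM (-0.65, -0.74 to -0.57).

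Many genes of this programme share a pair of promoter elements. The cell cycle genes homology region (CHR) is the site through which MuvB complexes repress these genes in resting cells and, with B-MYB and FOXM1, activate them in G2, and the CCAAT box is bound by the factor NF-Y. Promoter windows from RefSeq (build GRCm38.p6, 250 bases before to 50 after the start site) were found for 29 of the 34 genes, 31 windows in all, since Ect2 and Prc1 each have more than 1. The CHR was searched as TTTGAA or TTCGAA and the NF-Y box as CCAAT, on both strands; a CHR and a CCAAT match shared a base in 1 window, that of Cdca8. A CHR was present in 25 of the 31 windows, against 19.2% of 32851 windows of all genes, and a CCAAT box in 24 of 31, against 37.4%. Both were present in 22 of 31, against 7.52%. In 21 of the 29 genes a CHR began within 50 bases of the start site, against 6.12% of 27025 genes with a window.

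The 150 bases before the start site are printed below for 8 of these genes. They were chosen to show the layout of the elements in front of a mitotic kinase, a proliferation marker, ubiquitination, motor, cytokinesis and chromosome genes. Ccnb1, the last of them, has CCAAT boxes but neither TTTGAA nor TTCGAA in its window. Other forms of the CHR were not searched. Capitals mark CHR and CCAAT matches, reading as TTCAAA and ATTGG where they lie on the other strand. Sequences run 5′ to 3′ on the strand of the gene.
Cdk1, chr10:69352913-69353062, minus strand: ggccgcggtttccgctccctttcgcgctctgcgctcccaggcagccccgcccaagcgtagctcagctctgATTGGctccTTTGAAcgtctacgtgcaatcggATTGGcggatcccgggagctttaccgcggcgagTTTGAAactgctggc
Cdc20, chr4:118437344-118437493, minus strand: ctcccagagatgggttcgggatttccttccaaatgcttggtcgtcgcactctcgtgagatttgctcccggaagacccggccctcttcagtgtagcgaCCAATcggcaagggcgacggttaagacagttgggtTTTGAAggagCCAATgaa
Ube2c, chr2:164769779-164769928, plus strand: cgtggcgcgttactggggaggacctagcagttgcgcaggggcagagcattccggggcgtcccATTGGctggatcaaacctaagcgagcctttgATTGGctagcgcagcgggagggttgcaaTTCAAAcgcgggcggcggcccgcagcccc
Mki67, chr7:135716380-135716529, minus strand: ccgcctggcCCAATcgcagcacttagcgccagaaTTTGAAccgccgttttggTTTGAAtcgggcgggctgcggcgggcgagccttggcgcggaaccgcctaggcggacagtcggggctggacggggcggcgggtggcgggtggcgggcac
Kif11, chr19:37376232-37376381, plus strand: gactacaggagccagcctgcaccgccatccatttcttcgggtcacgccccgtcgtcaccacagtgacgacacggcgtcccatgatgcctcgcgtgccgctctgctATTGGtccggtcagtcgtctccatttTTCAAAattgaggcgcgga
Ect2, chr3:27153879-27154028, minus strand: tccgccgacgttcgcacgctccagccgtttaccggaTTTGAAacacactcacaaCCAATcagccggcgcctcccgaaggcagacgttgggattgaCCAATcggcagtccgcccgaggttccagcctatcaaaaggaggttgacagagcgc
Top2a, chr11:99024190-99024339, minus strand: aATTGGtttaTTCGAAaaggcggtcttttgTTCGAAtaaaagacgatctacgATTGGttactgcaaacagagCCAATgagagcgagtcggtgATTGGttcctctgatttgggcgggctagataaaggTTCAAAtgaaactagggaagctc
Ccnb1, chr13:100786487-100786636, minus strand: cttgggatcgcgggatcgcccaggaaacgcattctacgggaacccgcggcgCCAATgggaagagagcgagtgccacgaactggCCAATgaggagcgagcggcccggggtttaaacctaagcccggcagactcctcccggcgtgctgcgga

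In Cdc20 the CHR begins 18 bases before the start site, between a pair of CCAAT boxes at 53 and 8 bases before it. Cdk1 has a CHR at 71 and another at 15 bases before the start, with inverted CCAAT boxes at 80 and 48. Matches of this kind are descriptions of the letters in the window and do not show that a factor binds there.

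**Figure D1:**
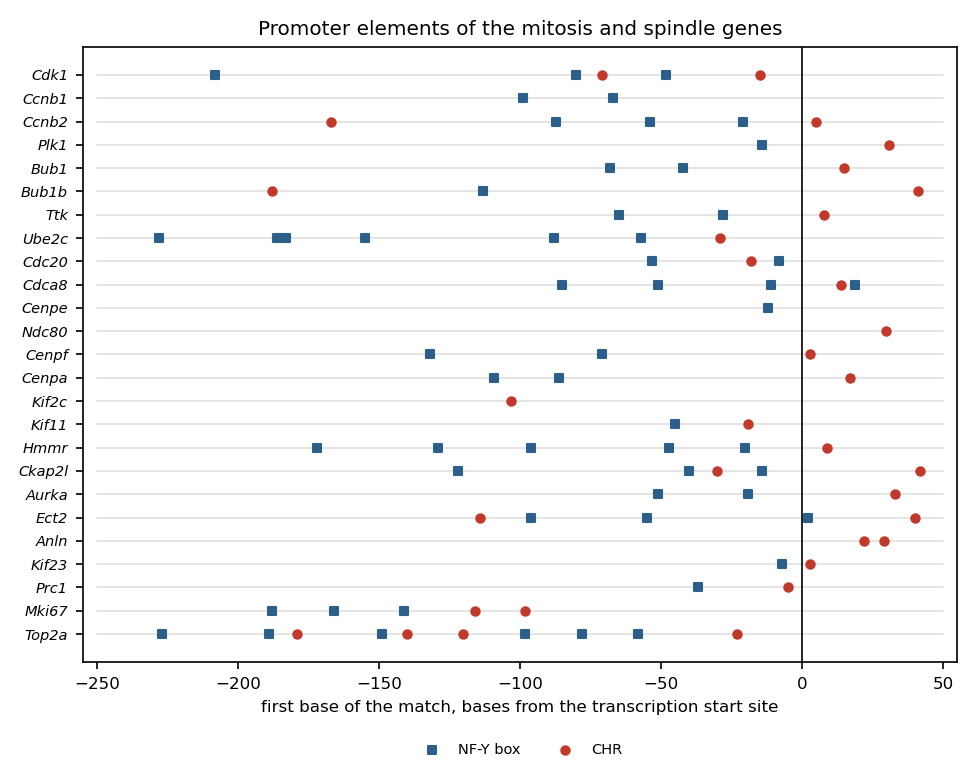
Positions of CHR and NF-Y box matches (first base, in bases from the transcription start site, from 250 before to 50 after) for the 25 genes with at least 1 match, 1 RefSeq window per gene. A CHR lies within 50 bases of the start site in 21 genes, a layout found in 6.12% of all genes with a window.

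Every mitosis and spindle gene had a lower level in the Cipc scko library, as did 49.7% of all genes past the filter. Together the 34 genes took 31066 counts in Cipc scko, or 0.185% of the library (exact binomial 95% interval 0.183 to 0.187%), and 59451 counts in Cipc flox/flox, or 0.368% (0.365 to 0.371%). After scaling, the summed level was 1935 CPM in Cipc scko against 3512 CPM in Cipc flox/flox, or -0.86 on the log2 scale (-0.88 to -0.84). A gene was called lower or higher where it differed by at least 2-fold and its 95% counting interval excluded equality. By this rule 12 of the 34 genes were called lower and 0 higher, against 15.9% of all genes past the filter called lower and 21.2% called higher. The median log2 ratio of the 34 was -0.80, beside 0.01 over all 12874 genes. In bulk RNA, fewer cells in mitosis and less of these transcripts per cell cannot be told apart.

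The genes shared a direction at different sizes. All 34 intervals lay below equality, as did those of 41.4% of all genes. The lowest log2 ratio was -1.75 (Bub1) and the highest -0.24 (Aurkb). 8 genes had an interval wholly beyond 2-fold, 18 had one wholly short of it, and for the other 8 the interval spanned the limit. The matching shares of all genes are not given, so these counts stand without a background. At a limit of 1.5-fold, 26 of 34 were called lower, against 25.8% of all genes, and at 4-fold 0 of 34 were, against 6.68%. Just inside the 2-fold limit lay Bub1b (-1.01) and just outside it Ttk (-0.98). Of all genes past the filter, 20.1% had a log2 ratio as low as the median of the 34 or lower.

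**Figure D2:**
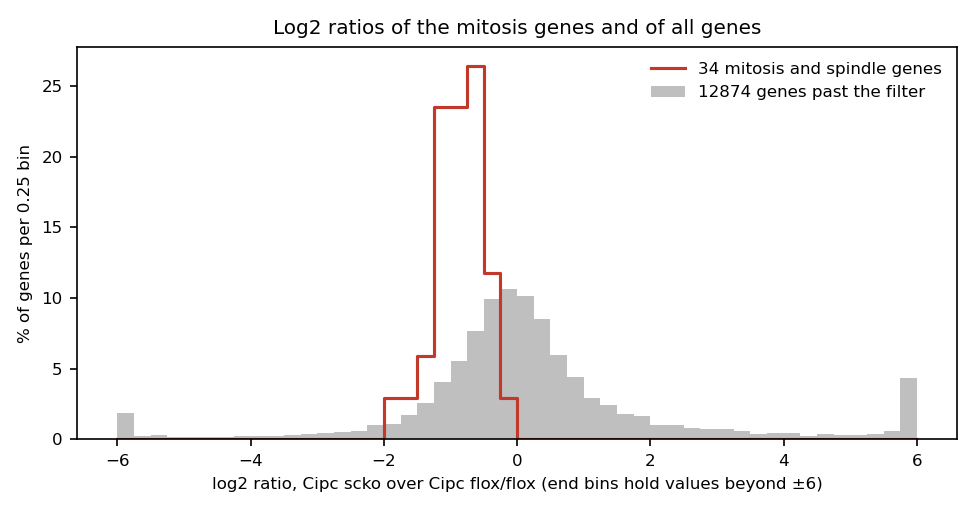
Share of genes (y axis, % per bin of 0.25) by log2 ratio of the Cipc scko to the Cipc flox/flox library (x axis), for 12874 genes past the filter (grey bars) and the 34 mitosis and spindle genes (red line). The 34 genes form a narrow peak between -1.75 and -0.24, left of the median of all genes at 0.01 and inside the broad range of the grey bars.

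**Figure D3:**
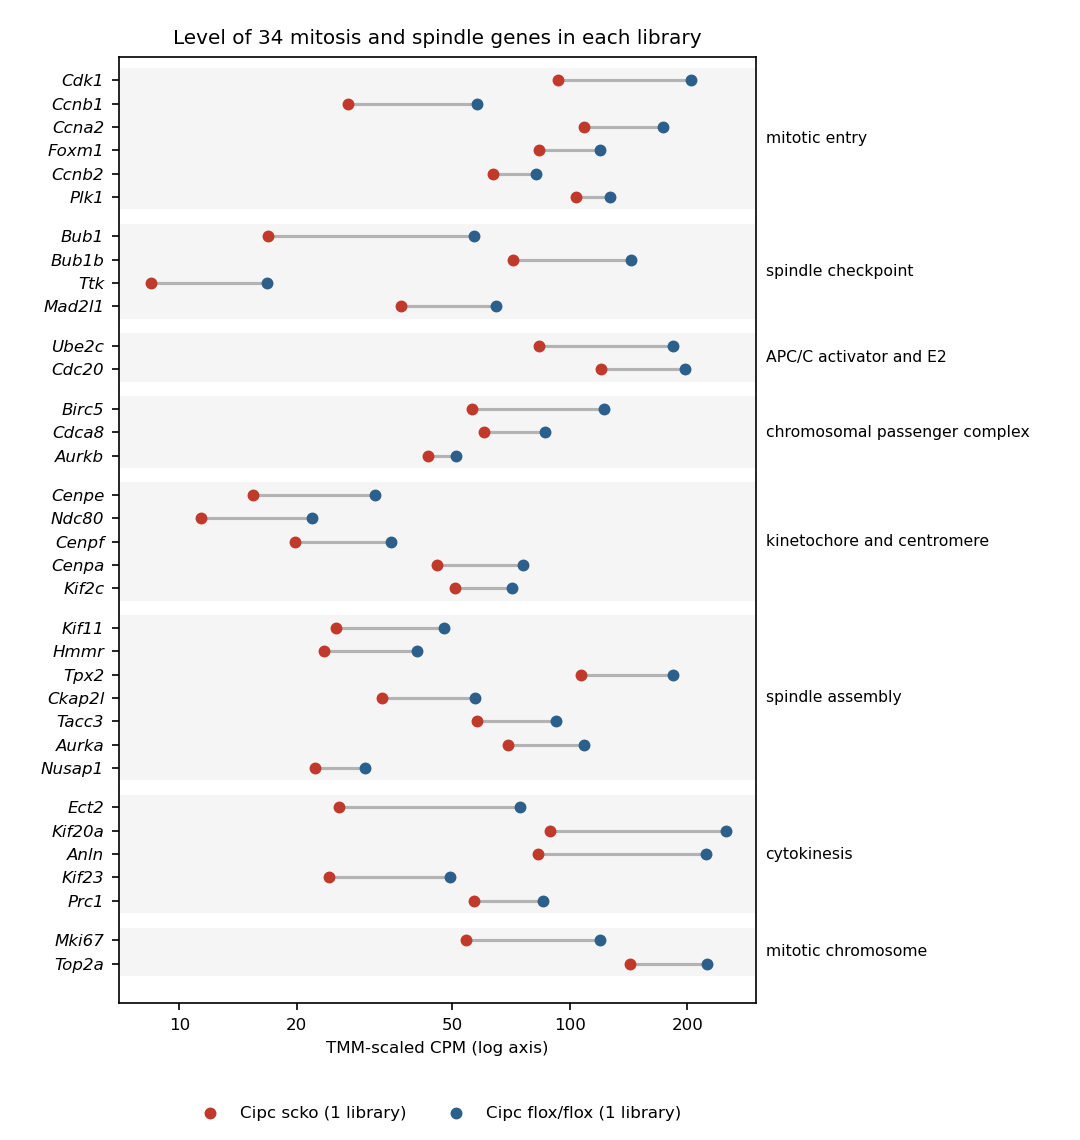
Level of each gene in TMM-scaled CPM (log axis) in the Cipc scko library (red) and the Cipc flox/flox library (blue), grouped by role. The red point lies left of the blue point for all 34 genes, by the widest margin for Bub1, Ect2, Kif20a and Anln.

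Genes that drive entry into mitosis had log2 ratios from -1.13 (Cdk1) to -0.29 (Plk1). Cdk1 (ENSMUSG00000019942, GRCm38 chromosome 10, 69335146 to 69352938), the kinase that triggers mitosis, stood at 93.4 CPM in Cipc scko against 204.8 CPM in Cipc flox/flox, 2.19-fold lower (log2 -1.13, -1.22 to -1.05). Ccnb1, the cyclin B that activates it, stood at 27.1 and 57.7 CPM (-1.09, -1.26 to -0.93). These were the 2 of 6 entry genes called lower, against 15.9% of all genes. Ccna2, the S and G2 cyclin, was at 109.0 and 173.4 CPM, a log2 ratio of -0.67 (-0.76 to -0.58). Foxm1, a transcription factor that activates G2 genes, was at 83.5 and 119.3 CPM (-0.51, -0.62 to -0.41). Ccnb2, the second cyclin B, was at 63.5 and 82.2 CPM (-0.37, -0.49 to -0.26), and the polo-like kinase gene Plk1 at 104.0 and 126.7 CPM (-0.29, -0.38 to -0.19). Within a library, where no scaling between libraries enters, there were 0.427 Ccnb1 counts for each Ccnb2 count in Cipc scko against 0.702 in Cipc flox/flox. The Ccnb1 to Cdk1 ratio was nearly the same in both, at 0.290 and 0.282.

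Of the 4 spindle checkpoint genes, Bub1 and Bub1b were called lower, against 15.9% of all genes. Bub1 (ENSMUSG00000027379, GRCm38 chromosome 2, 127801122 to 127831865), a kinase that recruits the checkpoint proteins to kinetochores, was counted 271 times in Cipc scko, against 965 in Cipc flox/flox. It stood at 16.9 and 57.0 CPM, 3.37-fold lower (log2 -1.75, -1.96 to -1.56), the largest difference among the 34. Bub1b, which encodes the checkpoint component BUBR1, stood at 71.4 and 143.3 CPM (-1.01, -1.11 to -0.90). The intervals of these related genes did not overlap, and the count of Bub1 for each Bub1b count was 0.236 in Cipc scko against 0.398 in Cipc flox/flox. Ttk, which encodes the checkpoint kinase MPS1, had the fewest counts of the 34 genes, 136 and 284, at 8.47 and 16.8 CPM (-0.98, -1.29 to -0.69). Mad2l1, which encodes the inhibitor of CDC20, was at 37.1 and 64.9 CPM (-0.81, -0.96 to -0.66).

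The activator and the ubiquitin-conjugating enzyme of the APC/C were both lower, by different amounts. Ube2c, the conjugating enzyme that starts chains on cyclin B, stood at 83.2 CPM in Cipc scko against 183.6 CPM in Cipc flox/flox and was called lower (log2 -1.14, -1.23 to -1.05). Cdc20, the mitotic activator, was at 120.3 and 197.6 CPM (-0.72, -0.80 to -0.63), short of 2-fold. Their intervals did not overlap.

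In the chromosomal passenger complex, which corrects faulty attachments and guides cytokinesis, 1 of 3 genes was called lower, against 15.9% of all genes. Birc5, which encodes the subunit survivin, stood at 56.1 CPM in Cipc scko against 122.5 CPM in Cipc flox/flox (log2 -1.13, -1.24 to -1.01). Cdca8, which encodes borealin, was at 60.4 and 86.3 CPM (-0.51, -0.63 to -0.40). The catalytic subunit Aurkb (ENSMUSG00000020897, GRCm38 chromosome 11, 69045647 to 69051664) was at 43.5 and 51.2 CPM, a log2 ratio of -0.24 (-0.38 to -0.09), the nearest to equality of all 34. Incenp, the scaffold of the complex and not among the 34, was at 84.7 and 128.5 CPM (-0.60, -0.70 to -0.50). There were 1.29 Birc5 counts for each Aurkb count in Cipc scko against 2.39 in Cipc flox/flox, so the subunits did not differ in proportion.

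Kinetochore and centromere genes lay close to the median, with 1 of 5 called lower, near the 15.9% of all genes. Cenpe, a kinesin that carries chromosomes to the spindle equator, stood at 15.4 CPM in Cipc scko against 31.8 CPM in Cipc flox/flox (log2 -1.04, -1.26 to -0.82). Ndc80, the microtubule coupler of the outer kinetochore, was at 11.3 and 21.9 CPM (-0.95, -1.22 to -0.69), and Cenpf at 19.7 and 34.9 CPM (-0.82, -1.02 to -0.62). Cenpa, the histone H3 variant that marks centromeres, was at 45.6 and 76.0 CPM (-0.74, -0.87 to -0.60). Kif2c, a kinesin that takes microtubules apart at centromeres, was at 50.7 and 71.0 CPM (-0.49, -0.62 to -0.36). The intervals of Cenpe, Ndc80 and Cenpf overlapped each other, so their order is not resolved at this depth.

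All 7 spindle assembly genes were lower without reaching 2-fold. The motor gene Kif11, whose product pushes the spindle poles apart, stood at 25.2 CPM in Cipc scko against 47.7 CPM in Cipc flox/flox (log2 -0.92, -1.10 to -0.75). Under scaling by library totals Kif11 passed 2-fold (-1.06). Aurora kinase A and its activator were close to each other: Aurka was at 69.6 and 108.7 CPM (-0.64, -0.75 to -0.54) and Tpx2 at 106.7 and 184.3 CPM (-0.79, -0.87 to -0.70). Hmmr and Ckap2l, both microtubule-associated proteins of the spindle, had log2 ratios of -0.80 and -0.79. Tacc3, which stabilises kinetochore fibres, had one of -0.67. Nusap1, a microtubule bundler, was at 22.3 and 29.8 CPM (-0.42, -0.62 to -0.22), the nearest to equality of the 7.

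Cytokinesis genes held 3 of the 4 lowest ratios, and 4 of 5 were called lower, against 15.9% of all genes. Their median log2 ratio was -1.43. Ect2 (ENSMUSG00000027699, GRCm38 chromosome 3, 27097222 to 27153878), the exchange factor that activates RhoA at the cell equator, stood at 25.6 CPM in Cipc scko against 74.7 CPM in Cipc flox/flox, 2.92-fold lower (log2 -1.54, -1.71 to -1.38). Kif20a, a kinesin of the central spindle, was at 89.1 and 251.7 CPM (-1.50, -1.59 to -1.41), the highest CPM of the 34 genes in Cipc flox/flox. Anln (ENSMUSG00000036777, GRCm38 chromosome 9, 22332012 to 22389188), the anillin that holds the contractile ring together, was at 83.0 and 223.5 CPM (-1.43, -1.52 to -1.34). The intervals of these genes overlapped one another. Kif23, the kinesin of centralspindlin, was at 24.2 and 49.3 CPM (-1.02, -1.20 to -0.85). Prc1, which bundles the microtubules of the midzone, was the exception at 57.0 and 85.4 CPM (-0.58, -0.70 to -0.46). Racgap1, the partner of Kif23 in centralspindlin and not among the 34, was at 127.9 and 351.6 CPM (-1.46, -1.53 to -1.39), overlapping the interval of Ect2 and not that of Kif23.

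Of the genes that act on mitotic chromosomes, the proliferation marker Mki67 (ENSMUSG00000031004, GRCm38 chromosome 7, 135689784 to 135716361) was called lower, with 872 counts in Cipc scko against 2027 in Cipc flox/flox, and Top2a was not. Top2a, which encodes the topoisomerase that untangles sister chromatids, had 2297 and 3797 counts, at 143.1 and 224.3 CPM (log2 -0.65, -0.72 to -0.57). Top2a had the highest CPM of the 34 in Cipc scko.

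**Figure D4:**
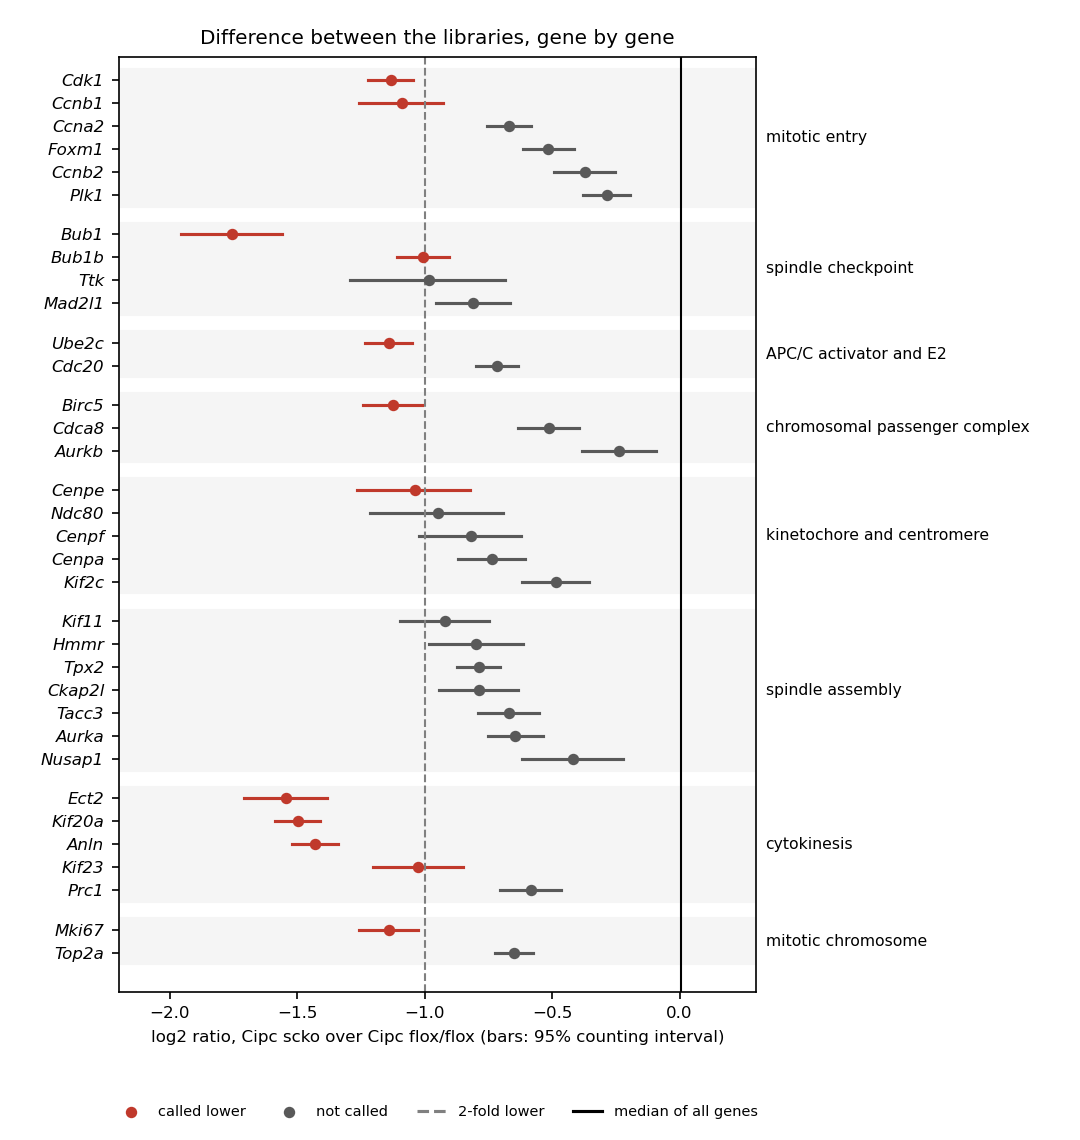
Log2 ratio of the Cipc scko to the Cipc flox/flox library for each gene (points), with its 95% counting interval (bars), grouped by role. The dashed line marks 2-fold lower and the solid line the median of all genes past the filter (0.01). The 12 genes called lower are red, and Ect2, Kif20a and Anln stand with Bub1 at the far left.

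The sizes differed beyond counting error for many pairs of genes. Of 561 pairs among them, 333 had counting intervals that did not overlap. The share for pairs of other genes is not given, so this count does not set the 34 apart. Kif20a and Plk1 stood furthest apart among the pairs examined within the 34: there were 0.857 Kif20a counts for each Plk1 count in Cipc scko against 1.99 in Cipc flox/flox, a 2.32-fold shift. Levels per transcript length, in the authors' FPKM, kept nearly the same order in both libraries (Spearman rho 0.955 over 34 genes that share libraries, lengths and depth). Cdc20 was the highest in both, at 49.9 FPKM in Cipc scko and 90.1 FPKM in Cipc flox/flox, and Cenpf the lowest, at 1.05 and 2.04 FPKM. Bub1 moved furthest down this order, from rank 21 in Cipc flox/flox to rank 30 in Cipc scko. Over the 34 genes, Spearman's rho of the log2 ratio was -0.05 with FPKM in Cipc flox/flox and -0.32 with exon length.

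The genes lie on 14 chromosomes, and whole chromosomes had medians of their own in these libraries. Among chromosomes that carry a member, these ran from -0.34 (chromosome 10, Cdk1) to 0.40 (chromosome 7, Plk1, Prc1 and Mki67). With the median of its own chromosome subtracted, each of the 34 genes was still below 0, the median of the list was -0.80 and 10 were called lower. The share of all genes called lower after this step is not given, so the 10 stand without a background. Cdk1 (-0.79), Bub1b (-0.91) and Cenpe (-0.92) then fell short of 2-fold, and Ttk passed it (-1.23). Among the entry genes, Cdk1 then lay beside Plk1 (-0.69) and Ccnb2 (-0.62), while Ccnb1 was at -1.22. Anln (-1.68), Bub1 (-1.66) and Mki67 (-1.54) were then the lowest. On chromosome 2, which held 7 of the 34 and had a median of -0.10, ratios ran from -1.75 (Bub1) to -0.42 (Nusap1).

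Exons of 8 of the 34 genes overlap another gene of the table, and the labels do not state whether counting used strand, so their reads cannot be fully told apart. The overlap is widest for Kif20a, which shares 1271 exonic bases with the APC/C subunit gene Cdc23. Cdc23 had nearly equal levels, 95.7 CPM in Cipc scko against 97.9 CPM in Cipc flox/flox. Ube2c shares 592 bases with Tnnc2, a fast troponin gene of differentiated muscle at 135.3 and 0.768 CPM. The other 6 overlaps are those of Ccna2, Cdc20, Cdca8, Nusap1, Prc1 and Tacc3. Without the 8 genes, 10 of 26 were called lower, against 15.9% of all genes, with a median of -0.87. Near-identical transcripts were found for Ccnb1, Cdca8 and Mki67 in the annotation, and those copies had no row in the count table.

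Other genes of cell division were read from 8 lists, whose counts stand beside the 15.9% of all genes called lower and the 21.2% called higher. Condensin and cohesin genes, which compact chromosomes and hold sisters together, had 6 of 14 called lower (42.9%) and 0 higher, with a median log2 ratio of -0.97. The condensin subunits Ncapg2 and Ncapg were lowest (-1.63 and -1.52), and Stag1 (-0.18) and Ncapd2 (-0.05) were not called. Of 39 other kinetochore and centromere genes, 9 were called lower (23.1%) and 2 higher (median -0.65). Zwint, a protein of the outer kinetochore, fell from 343.7 CPM in Cipc flox/flox to 72.1 CPM in Cipc scko (-2.25, -2.35 to -2.16), and Cenpn, of the inner kinetochore, had a ratio of -1.90. The exceptions were Hjurp, the chaperone that loads CENP-A, at 204.2 CPM in Cipc scko against 97.0 CPM in Cipc flox/flox (1.07, 0.99 to 1.16), and Spc24, of the NDC80 complex, at 56.1 and 27.7 CPM (1.02, 0.86 to 1.18). Neither call held when the libraries were scaled by totals (0.94 for Hjurp and 0.88 for Spc24), by totals without the most counted genes (0.99 and 0.93) or from FPKM (0.85 to 0.93), and that of Spc24 also ended with DESeq2 size factors (0.9957), at ratios that remained above 0. Both run against their partners among the 34: there were 0.202 Ndc80 counts for each Spc24 count in Cipc scko against 0.791 in Cipc flox/flox, and 0.223 and 0.784 Cenpa counts for each Hjurp count. Nuf2, which pairs with Ndc80 in the same complex, was at 28.8 and 49.3 CPM (-0.78, -0.94 to -0.61), overlapping Ndc80.

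Of 33 other spindle motor, spindle protein and centriole genes, 7 were called lower (21.2%) and 0 higher (median -0.67), from Sass6 (-1.47) and Cep152 (-1.32), genes of centriole duplication, to the augmin subunits Haus4 (0.51) and Haus8 (0.67), which were not called. Of 12 other anaphase and cytokinesis genes, 4 were called lower (33.3%) and 0 higher (median -0.52), among them Racgap1 and Espl1, which encodes separase (-1.27), while Sept7 (-0.04) and Arhgef39 (0.90) were not called. Of 14 genes of mitotic entry control, 4 were called lower (28.6%) and 0 higher (median -0.53). The lowest were Mastl (-1.69), the Greatwall kinase, and Wee1 (-1.62), a kinase that holds CDK1 inactive. Pkmyt1, which acts as Wee1 does, was at 0.25, and Ensa, a substrate of Greatwall, at 0.95, neither called. Of 11 MuvB, B-MYB and E2F repressor genes, 1 (9.09%) was called lower, the repressor E2f7 (-1.06), and 0 higher (median -0.48), so the share called lower was below that of all genes. Mybl2, which encodes B-MYB, was at -0.91, and Rbbp4 (0.35) and E2f4 (0.65) had the highest ratios of that list.

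The list of APC/C subunits and regulators had the median nearest to equality. It holds regulators such as Fbxo5 beside the subunits, which most cells keep through the whole cycle. Of 17 genes, 0 were called lower and 1, Anapc13 (1.03), higher, with a median log2 ratio of -0.31. The call of Anapc13 ended under scaling by totals (0.89), by totals without the most counted genes (0.94) and from FPKM (0.76 to 0.88). Fbxo5, which encodes the APC/C inhibitor EMI1, was at -0.98 and Cdc27 at -0.81, short of the limit, and Cdc16 at 0.63. Fbxo5 passed the limit with DESeq2 size factors (-1.01) and under scaling by totals (-1.12). It also did so by totals without the most counted genes (-1.07) and from FPKM with a pseudocount of 0.1 (-1.10). DNA replication and G1/S genes, which act earlier in the cycle, had 18 of 39 called lower (46.2%) and 1 higher, a median of -0.95. E2f2 (-2.04) and Gins3 (-2.00) were lowest, and Pold1 (0.68) and Ccne1 (1.03) highest. The call of Ccne1 ended under the same settings as that of Anapc13, at 0.84 to 0.94. No test of a difference between lists is possible with these libraries.

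**Figure D5:**
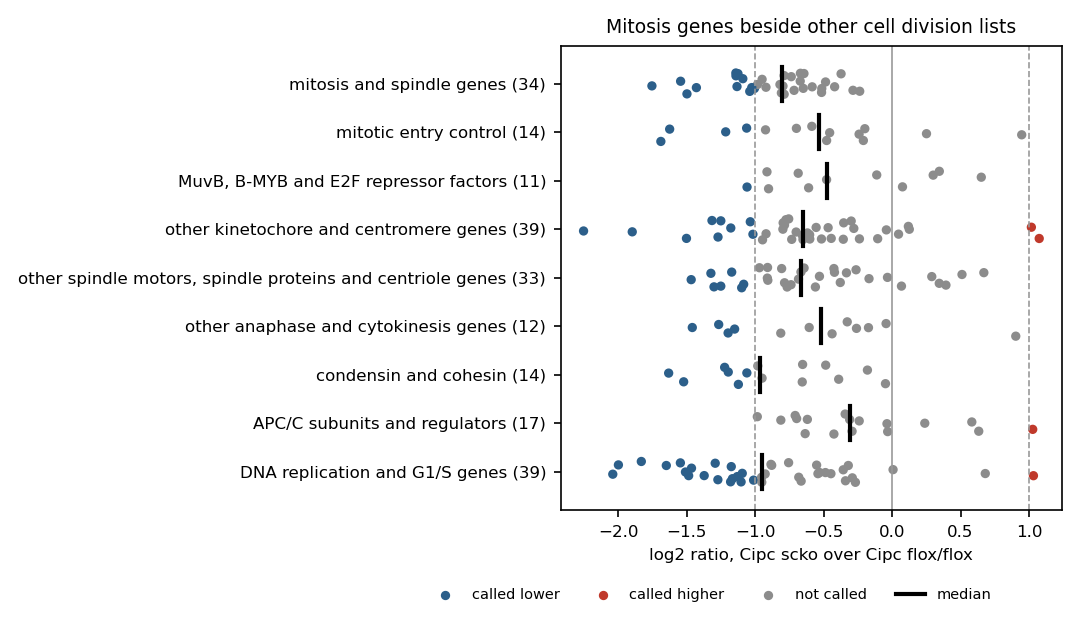
Log2 ratio of the Cipc scko to the Cipc flox/flox library (x axis) for each gene (points) of the mitosis and spindle genes and of 8 other cell division lists, with the number of genes in brackets and the list median as a black bar. All 9 medians lie below 0, from -0.97 for condensin and cohesin to -0.31 for APC/C subunits and regulators, and dashed lines mark 2-fold.

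Of 7 genes for inhibitors of cyclin-dependent kinases, 4 were called higher and 0 lower, against 21.2% of all genes called higher. Of these 4, Cdkn1a alone had at least 1 CPM in both libraries; Cdkn2a, Cdkn2b and Cdkn1c passed the filter only through Cipc scko, where they were high. Cdkn1a, which encodes p21, stood at 1912 CPM in Cipc scko against 391.0 CPM in Cipc flox/flox (log2 2.29, 2.25 to 2.33). Cdkn2a and Cdkn2b were not counted in Cipc flox/flox (0 counts) but had 688 and 576 counts in Cipc scko, which with 3 counts taken as the floor of a library is at least 242-fold higher for Cdkn2a and at least 202-fold higher for Cdkn2b. Cdkn1c had 66 and 2 counts (4.80, 3.21 to 8.20), a ratio that was 3.39 with a prior count of 5 and 1.20 from FPKM with a pseudocount of 1, and the gene did not pass a filter at 5 CPM. Cdkn1b (0.24), Cdkn2c (0.57) and Cdkn2d (0.57) were not called.

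Markers of other cell states and types moved with the same comparison. All 8 markers of differentiating muscle were called higher, against 21.2% of all genes, though Ckm, Myh3 and Actc1 passed the filter only through Cipc scko, with 3, 6 and 3 counts in Cipc flox/flox. They stood at a summed 19312 CPM in Cipc scko against 161.4 CPM in Cipc flox/flox, with Myog at 2758 and 3.13 CPM and Myod1 at 1192 and 113 CPM. Of 7 macrophage markers 5 had a row, at a summed 6.48 and 47.5 CPM, without Adgre1 and Ptprc. Cd68 (-3.73) and Cd14 (-3.85) were lower in Cipc scko. Csf1r was higher, with 37 counts against 9 (2.05), and passed the filter only through Cipc scko. Lyz2 (9 and 10 counts) and C1qa (5 and 4) were under the filter. Of 5 endothelial markers 4 had a row, at a summed 8.22 and 0.886 CPM. Pecam1 had 0 counts in Cipc flox/flox and Tek 0 in Cipc scko. Most of the Cipc scko sum was Kdr (112 and 2 counts), which passed the filter only through that library. Most of the Cipc flox/flox sum was Tek, at 0.650 CPM (11 counts). Fibro-adipogenic markers, 4 of 5 with a row, summed to 853.9 and 591.8 CPM, nearly all of it Col1a1 (448.2 and 115.6 CPM) and Ly6a (404.9 and 459.1 CPM). Their median ran the other way, at -1.89, with Pdgfra (11 and 147 counts, -3.61) and Dcn (1 and 142 counts, -6.51, -12.4 to -4.57) called lower and Col1a1 higher. Pdgfra and Dcn passed the filter only through Cipc flox/flox, where they were high, and the median rests partly on them. Over all genes past the filter, 15.9% were called lower. Smooth muscle and pericyte markers, 3 of 6 with a row, summed to 12698 and 626.1 CPM, mostly from Acta2, at 12432 and 513.2 CPM. Pdgfrb was also higher, at 265.8 and 83.9 CPM (1.66). Cspg4 was lower, with 7 counts against 491 (-5.96), and passed the filter only through Cipc flox/flox. Schwann markers (2 of 4 with a row, 1.12 and 0.414 CPM) and lymphocyte markers (1 of 3, 0.125 and 0 CPM) were near 0. The part of these markers, of the CDK inhibitors and of the sex-linked genes in the lower level of the mitosis genes was not tested.

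Among the 29 genes with a promoter window, values with and without the elements printed above lay close to each other. The 23 with a CHR had a median log2 ratio of -0.82, with 8 called lower. The 6 without a match to either CHR form searched had a median of -0.92, with 3 called lower. Outside the 34, 110 of 655 genes whose window held both a CHR and a CCAAT box were called lower, or 16.8%, beside 15.1% of 9838 genes with a window.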

How the data were processed

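Total RNA of satellite cells was sequenced as 1 library per genotype. HISAT2 2.0.4, StringTie 1.3.0, CASAVA and GRCm38 are listed in the submitters' processing notes, without roles; the annotation, counter, filters and use of strand were not given in the sources used here. The values deposited by the authors are raw counts for each Ensembl gene and, per the file headers, FPKM for each library. Symbols came from GENCODE vM21 (GRCm38), which named 16122 of 16190 genes.

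Counts were scaled with TMM (edgeR 4.0.16, R 4.3.3) and given as CPM. Genes entered with at least 1 CPM in a library and 20 counts over both. Log2 ratios used a prior count of 0.5. Intervals are exact binomial (Clopper-Pearson, 95%) for the share of a gene's counts in each library. They cover counting error only: without molecular identifiers, reads are not independent molecules. Copies were sought with BLAST+ 2.17.0 (95% identity over 80% of the shorter transcript).

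The members and lists were chosen with earlier results of these data known. Named genes were all members, Cipc, all CDK inhibitors, 4 markers, and the 2 highest and 2 lowest genes of each other list with at least 5 CPM. Incenp, Nuf2, Xist, Ddx3y, Cdc23, Tnnc2, Acta2, Pecam1, Tek, the other single markers and the pairs of partner genes are outside this rule and were picked with their values already seen. The alternatives were other scalings (DESeq2 1.42.0 among them), filters, prior counts, FPKM and other limits.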

Additional observations from a re-analysis of the deposited data

How the results depend on the processing

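Over other scalings, prior counts, FPKM and chromosome centring, the log2 ratios of the 34 genes lay between -1.89 and -0.11. Other scalings shift every gene by nearly the same amount, and the other filters kept all 34 and left their values as they were. Their median ran from -0.94 (library totals) to -0.76 (upper quartile). The number called lower ran from 9 (upper quartile, without Bub1b, Cenpe and Kif23) to 15 (library totals, with Ttk, Ndc80 and Kif11 added). Other fold limits stood apart and gave 26 at 1.5-fold and 0 at 4-fold. The median of all genes shifted by -0.14 when libraries were scaled by totals. Over all genes, 1941 were called lower under upper quartile scaling and 2416 under library totals. Over all genes, a limit of 1.5-fold gave 3318 lower, one of 4-fold 1608 higher and 860 lower, and FPKM with a pseudocount of 1 gave 1479 higher, against 2732 higher and 2053 lower. Cipc ran from -1.74 to -1.49. All 4 genes of the other division lists called higher (Hjurp, Spc24, Anapc13 and Ccne1) lost that call under scaling by totals, by totals without the most counted genes and from FPKM. FPKM with a pseudocount of 1 also ended the lower calls of Cep152 (-0.82), E2f7 (-0.78) and Sass6 (-0.58), while Mybl2 was called lower under scaling by totals (-1.05). Myf5, whose interval spanned equality, turned from 0.10 to -0.03 under scaling by totals. Chromosome centring and leaving out overlapping genes were chosen after seeing the data. No paired analysis was possible because each genotype has 1 library, and for the same reason no replicate could be left out. Depth limits the order of genes with few counts, such as Ttk and Ndc80, whose intervals span 2-fold.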
